A study of Homo sapiens with 12 samples.

Results

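YAP1 and WWTR1 (the gene of TAZ), the transcription factors TEAD1 and TEAD4, the kinases LATS1 and LATS2, and the genes *AMOTL2*, *ANKRD1*, *AJUBA* and *AXL* were examined in oral squamous cell carcinoma (OSCC) cells with and without rapamycin. The 10 genes were listed by symbol, and each was mapped to 1 Ensembl identifier. They are 10 of the 58302 genes in the count table, and all 10 had enough counts to be tested. In the Hippo pathway, the kinases STK3 and STK4 with the adaptor SAV1 activate LATS1 and LATS2, which act with MOB1 proteins and phosphorylate the co-activators YAP1 and TAZ. Phosphorylated YAP1 and TAZ are held in the cytoplasm and degraded, whereas the unphosphorylated proteins enter the nucleus, bind TEAD factors and switch on genes such as *CCN1*, *CCN2*, *ANKRD1* and *AXL*. The pathway responds to cell contact, tension and nutrient state, and YAP1 and TAZ are known for driving growth and invasion in squamous carcinomas.

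Rapamycin inhibits mTOR complex 1 and was used in the study to induce autophagy. RNA-seq comprised 4 libraries of OSCC cells, rapamycin 1 and 2 from cells given 100 nM rapamycin and control 1 and 2 from untreated cells, with 18492273 to 23763098 counts per library. MeRIP-seq, in which RNA fragments bound by an m6A antibody are sequenced beside the input, comprised 1 pair of immunoprecipitated and input libraries for each of HSC3 and CAL33, with 100 nM rapamycin for 3 days or without it. HSC3 and CAL33 are established human lines of tongue squamous carcinoma. In the MeRIP-seq labels number 1 marks HSC3 and number 2 marks CAL33, while the RNA-seq labels give HSC3 for both rapamycin libraries and CAL33 for both controls. If the RNA-seq labels hold, rapamycin and cell line cannot be told apart in the mRNA values. Across genes, log2 CPM (counts scaled to a common library size) correlated at 0.97 and 0.96 between libraries of the same number and at 0.76 to 0.81 between libraries of different numbers, so the labelled cell line went against the resemblance of the libraries. The RNA-seq cell line was therefore not assigned, and libraries were also compared within each number.

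*EPCAM*, *CDH1* and *DSP*, epithelial genes, were expressed in all 4 libraries, at 157 CPM or more. The keratins *KRT5*, *KRT14* and *KRT17* and the squamous regulator *TP63* were low in number 1 and higher in number 2, and the 7 squamous markers summed to 1023 and 1330 CPM in number 1 and 3647 and 4592 CPM in number 2. *KRT5* and *KRT14* were also called lower with rapamycin once the number entered as a block, and their part in the rapamycin results was not tested. *KRT14* had 0 counts in both number 1 libraries, so its call rests on number 2, with 23 counts under rapamycin and 221 in control. Of the 7 fibroblast markers, *COL1A2*, *COL3A1* and *DCN* were at 0 in all libraries and *PDGFRA* was under 1 CPM, while *COL1A1* was 8.79 to 29.3 CPM. *PDGFRB* was 14.8 and 10.3 CPM in number 1 and 0 in number 2, and *LUM* was 2.58 and 3.46 CPM in number 1 and at most 0.11 CPM in number 2. The fibroblast list summed to 46.7 and 35.9 CPM in number 1 and 28.5 and 8.83 CPM in number 2 (rapamycin first). Of the 4 endothelial markers *KDR* was at 0, and *CDH5* was under 1 CPM in number 1 and 41.6 and 25.6 CPM in number 2. The endothelial list summed to 1.42 and 1.71 CPM in number 1 and 45.4 and 30.8 CPM in number 2. Each of the 4 leukocyte markers was under 1 CPM.

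The mRNA of the co-activators themselves showed no change with rapamycin that passed the test. *AMOTL2*, an angiomotin family scaffold that binds YAP1 and is also one of its target genes, was higher in both rapamycin libraries. The sharpest contrast among the 10 genes was between numbers, not treatments: *AXL* and *ANKRD1* were abundant in number 1 and low in number 2 with and without rapamycin. Without a term for the number, 0 of 15826 genes passed an adjusted p of 0.05 for rapamycin (0%; 446 genes had an unadjusted p under 0.05 and DESeq2 called 42), and each of the 10 genes had an Benjamini-Hochberg adjusted p of 0.9997 in edgeR's quasi-likelihood test. With the replicate number as a block, 4.65% of the tested genes were called higher and 3.5% lower, and of the 10 genes *AMOTL2* was called higher and none lower. The 10 genes and the pathway lists below were chosen with earlier results of these data known. Counts of called genes beside these shares are therefore descriptive. The median log2 fold change in that fit was −0.16 over the 10 genes and 0.05 over all tested genes. The labels do not say whether numbered libraries came from separate cultures, so p-values refer to these libraries only. With 4 libraries, the test draws its estimate of spread largely from all genes. A p-value is therefore not a measure of 1 gene's own spread between pairs. The blocked standard errors of *WWTR1* (0.29) and *LATS1* (0.28) were alike. Their log2 differences within pairs were −0.82 and 0.39 for *WWTR1* and −0.34 and −0.30 for *LATS1*. In bulk RNA, a smaller share of cells expressing a gene and less RNA per cell cannot be told apart.

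**Figure D1:**
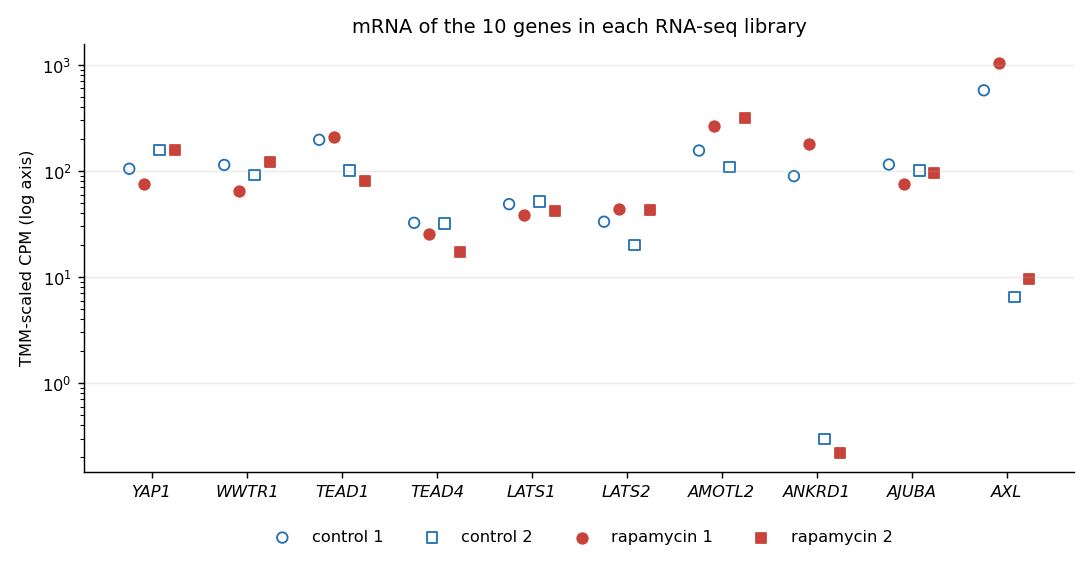
mRNA of the 10 genes in each RNA-seq library, as TMM-scaled CPM on a log axis. Open symbols are control, filled symbols rapamycin, circles number 1 and squares number 2. *ANKRD1* and *AXL* separate by number, and *AMOTL2* separates by treatment, with 264 and 316 CPM under rapamycin against 156 and 109 CPM in control.

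*YAP1* (ENSG00000137693, chr11:102110447-102233424 in RefSeq on GRCh38.p14) encodes the co-activator YAP1. Its mRNA was 75.1 CPM in rapamycin 1 and 159 CPM in rapamycin 2, against 105 CPM in control 1 and 157 CPM in control 2. The number 2 libraries were close to each other and above both number 1 libraries, and the treatment groups overlapped. The log2 fold change for rapamycin with the block was −0.23 (standard error 0.26, edgeR's quasi-likelihood adjusted p = 0.631). Within the pairs the log2 difference was −0.48 in number 1 and 0.02 in number 2.

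*WWTR1* (ENSG00000018408, chr3:149517235-149724788) encodes TAZ, the paralogue of YAP1. Its mRNA was 64.6 and 120 CPM in rapamycin 1 and 2 and 114 and 91.9 CPM in control 1 and 2. Rapamycin 1 was the lowest and rapamycin 2 the highest of the 4 libraries, so the groups overlapped and the pairs moved apart, by −0.82 in number 1 and 0.39 in number 2 on the log2 scale. The fold change with the block was −0.21 on the log2 scale (standard error 0.29, edgeR's quasi-likelihood adjusted p = 0.703).

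TEAD factors carry the DNA-binding domain through which YAP1 and TAZ reach their targets. *TEAD1* (ENSG00000187079, chr11:12674421-12944737) was 211 and 81.2 CPM in rapamycin 1 and 2 and 197 and 101 CPM in control 1 and 2. Both number 1 libraries lay above both number 2 libraries, and the treatment groups overlapped, with a blocked log2 fold change for rapamycin of −0.11 (standard error 0.26). The unblocked value of −0.03 became 0.06 with upper-quartile normalization. *TEAD4* (ENSG00000197905, chr12:2959397-3040676) was 25.3 and 17.4 CPM in rapamycin 1 and 2 and 32.5 and 31.9 CPM in control 1 and 2. Both rapamycin libraries lay below both controls, which was also the case for 16.5% of all tested genes. The blocked log2 fold change of *TEAD4* was −0.62 (standard error 0.31) and did not pass the test (edgeR's quasi-likelihood adjusted p = 0.232).

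The kinases differed from each other in where their libraries fell. *LATS1* (ENSG00000131023, chr6:149658153-149718101) was 38.3 and 41.7 CPM in rapamycin 1 and 2 and 48.7 and 51.4 CPM in control 1 and 2. Both rapamycin libraries lay below the controls by similar amounts, −0.34 and −0.30 on the log2 scale within the pairs, and the blocked fold change of −0.32 did not pass (standard error 0.28, edgeR's quasi-likelihood adjusted p = 0.512). *LATS2* (ENSG00000150457, chr13:20973036-21061586), which is also a target gene of YAP1, was 44.3 and 43.3 CPM in rapamycin 1 and 2 and 33.2 and 19.98 CPM in control 1 and 2. Both rapamycin libraries lay above both controls. The log2 difference of *LATS2* was 0.41 in number 1 and 1.11 in number 2, with a blocked fold change of 0.76 (standard error 0.30, unadjusted p = 0.0177, edgeR's quasi-likelihood adjusted p = 0.116). *AJUBA* (ENSG00000129474, chr14:22971177-22982551), a LIM protein that binds and inhibits LATS kinases, was 74.9 and 95.9 CPM in rapamycin 1 and 2 and 115 and 101 CPM in control 1 and 2. The rapamycin libraries of *AJUBA* were again the lower ones, with a log2 difference of −0.62 in number 1 and −0.08 in number 2 and a blocked fold change of −0.35 (standard error 0.26, edgeR's quasi-likelihood adjusted p = 0.438).

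*AMOTL2* (ENSG00000114019, chr3:134355345-134375417) was 264 CPM in rapamycin 1 and 316 CPM in rapamycin 2, against 156 CPM in control 1 and 109 CPM in control 2. The mean was 290 ± 36.6 CPM with rapamycin and 133 ± 33.0 CPM in control (SD, n = 2 each). The rapamycin libraries lay above the controls, by 1.70-fold in number 1 and 2.89-fold in number 2. The blocked log2 fold change of *AMOTL2* was 1.15 (standard error 0.27, edgeR's quasi-likelihood adjusted p = 0.00954), and the unblocked one 1.13 (standard error 0.34). Leaving out 1 pair leaves no test, and the log2 difference is then 0.76 (number 1) or 1.53 (number 2). Both rapamycin libraries were above both controls for *LATS2* and *AMOTL2* and below them for *TEAD4*, *LATS1* and *AJUBA*. The same was the case for 15% and 16.5% of all tested genes, and the other 5 of the 10 genes overlapped.

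*AXL* (ENSG00000167601, chr19:41219223-41261766), a receptor tyrosine kinase and a target gene of YAP1, was 1033 CPM in rapamycin 1 and 577 CPM in control 1, but 9.49 CPM in rapamycin 2 and 6.46 CPM in control 2. Its counts were 19652 and 12492 in number 1 and 173 and 153 in number 2. Within each number the rapamycin library was the higher one, by 1.79-fold in number 1 and 1.47-fold in number 2. The blocked log2 fold change of *AXL* was 0.71 (standard error 0.27), with an unadjusted p of 0.0128 and an edgeR quasi-likelihood adjusted p of 0.0967. *ANKRD1* (ENSG00000148677, chr10:90912096-90921087), a nuclear ankyrin repeat protein often used as a readout of YAP1 activity, was 178 CPM in rapamycin 1 and 89.4 CPM in control 1. In number 2 it was 0.219 CPM with rapamycin and 0.296 CPM without, which rested on 4 counts (95% Poisson interval 1.09 to 10.2) and 7 counts (2.81 to 14.4). A difference between the number 2 libraries was not detectable at this depth, and in number 1 the log2 difference was 0.995. The blocked log2 fold change of *ANKRD1* was 0.77 (standard error 0.36, edgeR's quasi-likelihood adjusted p = 0.188). The intervals cover counting error only.

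**Figure D2:**
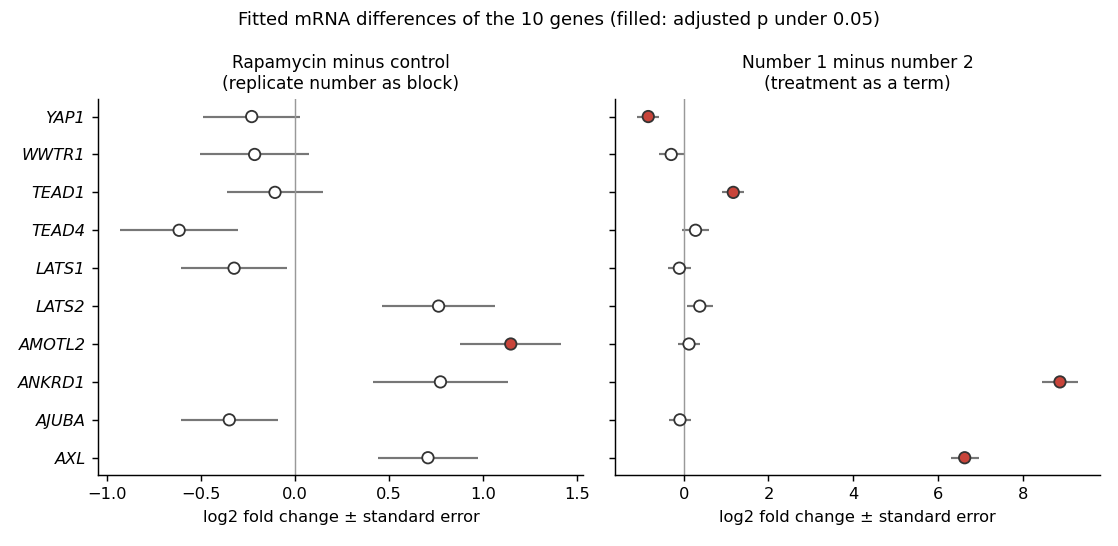
Fitted log2 fold changes with standard errors for rapamycin minus control (left, replicate number as a block) and number 1 minus number 2 (right, treatment as a term), with filled points past an adjusted p of 0.05. *AMOTL2* is filled at the left at 1.15, and *YAP1*, *TEAD1*, *ANKRD1* and *AXL* are filled at the right, on an axis that reaches 8.87.

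The difference between numbers was tested with treatment as a term. Of all tested genes, 20.2% were called higher in number 1 and 17% lower, so differences between numbers were frequent across the transcriptome. Of the 10 genes, *ANKRD1*, *AXL* and *TEAD1* were higher in number 1 and *YAP1* was lower. *ANKRD1* differed by 8.87 on the log2 scale (standard error 0.43) and *AXL* by 6.62 (standard error 0.33), each with an edgeR quasi-likelihood adjusted p of 5.31e-15. *AXL* was 101-fold higher in number 1 by mean CPM, 805 ± 323 against 7.98 ± 2.14 CPM (SD, n = 2 each). Each SD by number is taken over 1 rapamycin and 1 control library. It therefore includes the treatment difference and is not a spread of replicates. *TEAD1* was higher in number 1 by 1.17 on the log2 scale (standard error 0.26, edgeR's quasi-likelihood adjusted p = 0.000686), a 2.24-fold difference of 204 ± 10.3 against 91.2 ± 14.1 CPM. *YAP1* had its lower level in number 1, 90.1 ± 21.1 against 158 ± 1.62 CPM, a log2 difference of −0.83 (standard error 0.26, edgeR's quasi-likelihood adjusted p = 0.0121). Without the treatment term, *YAP1* did not pass (adjusted p = 0.134 from the same test). *YAP1* mRNA was lower in the libraries in which *ANKRD1* and *AXL* mRNA was higher. The level, phosphorylation and location of the YAP1 protein were not measured in these libraries. *WWTR1* differed by −0.29 (standard error 0.29, edgeR's quasi-likelihood adjusted p = 0.467), and its direction was −0.90 in the rapamycin libraries and 0.31 in the controls. Cell type markers moved with the number as well. Of the 7 squamous markers, 4 (the keratins and *TP63*) were called lower in number 1 and 1 (*CDH1*) higher. Of the 3 tested fibroblast markers, 2 (*PDGFRB* and *LUM*) were called higher in number 1, and the 3 tested endothelial markers were called lower. Their part in the result was not tested.

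The rest of the pathway was read from 4 lists with 52 genes. With the block, 5 of the 52 genes were called for rapamycin, 4 higher and 1 lower, beside 4.65% higher and 3.5% lower over all tested genes. Of the 18 other YAP1 and TAZ target genes, 3 were called higher and 0 lower, and the list median was 0.14 on the log2 scale, against 0.05 over all tested genes. Both rapamycin libraries lay above both controls for 3 of the 18 and below them for 2, and 13 overlapped. *FJX1*, a target gene on the lower side, was 11.2 and 11.7 CPM in rapamycin 1 and 2 and 24.2 and 22.6 CPM in control 1 and 2. Its blocked log2 fold change of −1.03 did not pass (standard error 0.34, edgeR's quasi-likelihood adjusted p = 0.0628). *GADD45A*, a growth arrest and DNA damage gene, was 130 and 66.0 CPM in rapamycin 1 and 2 and 59.7 and 15.1 CPM in control 1 and 2. It rose by 1.62 (standard error 0.29, edgeR's quasi-likelihood adjusted p = 0.00184), and both of its rapamycin libraries lay above both controls. *CCN2* and *CCN1* encode matricellular proteins and are among the most used YAP1 target genes. *CCN2* was 74.1 and 3.18 CPM in rapamycin 1 and 2 and 31.5 and 0.845 CPM in control 1 and 2, a rise of 1.49 in the blocked fit (standard error 0.34, edgeR's quasi-likelihood adjusted p = 0.00798). *CCN1* was 1470 and 27.0 CPM in rapamycin 1 and 2 and 386 and 18.1 CPM in control 1 and 2, a rise of 1.27 (standard error 0.31, edgeR's quasi-likelihood adjusted p = 0.0197). For *CCN1* the rise was 3.80-fold in number 1 and 1.49-fold in number 2. *CCN1* and *CCN2* were called here and *ANKRD1* and *AXL* were not, although all 4 had far lower levels in number 2. There *CCN2* rested on 58 counts with rapamycin and 20 in control. *AXL* was not far from the threshold, with an adjusted p of 0.0967 from edgeR's quasi-likelihood test. The difference of the rapamycin response between these genes was not tested.

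**Figure D3:**
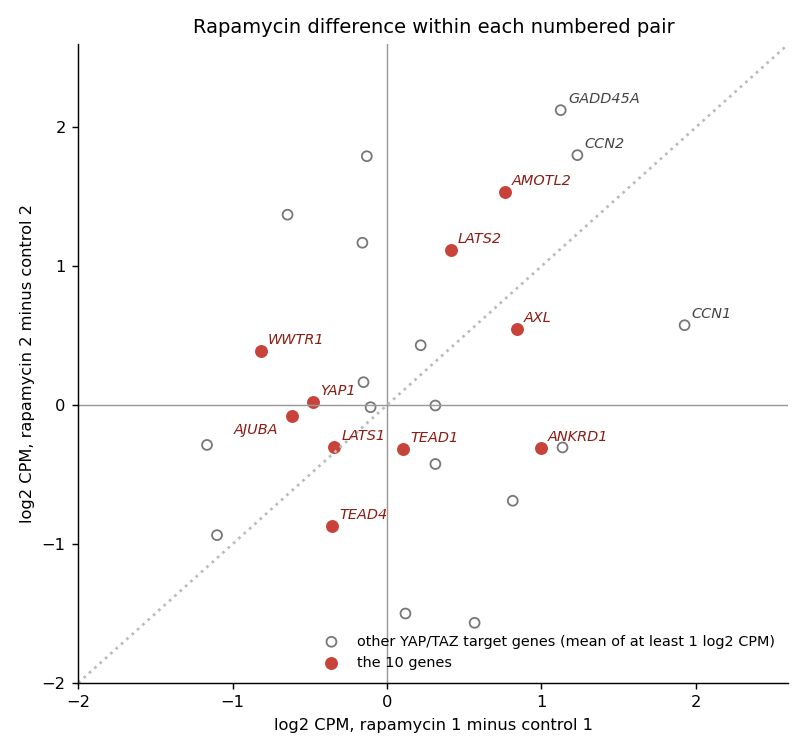
Difference of log2 CPM between rapamycin and control in number 1 (horizontal axis) and number 2 (vertical axis), for the 10 genes (filled) and the other YAP1 and TAZ target genes whose mean reached 1 log2 CPM (open), with a dotted line of equal differences. *AMOTL2*, *LATS2* and *AXL* lie in the upper right with *GADD45A*, *CCN1* and *CCN2*, while *WWTR1* and *ANKRD1* lie in quadrants of opposite sign.

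Of the 19 Hippo kinases and adaptors, 1 was called lower with rapamycin, and the list median was −0.09 on the log2 scale. This was *TAOK2*, a kinase upstream of the Hippo kinases. It was 51.1 and 76.0 CPM in rapamycin 1 and 2 and 110 and 151 CPM in control 1 and 2, a blocked fall of −1.05 on the log2 scale (standard error 0.26, edgeR's quasi-likelihood adjusted p = 0.0119), with both rapamycin libraries below both controls. Of the 12 TEAD partners and YAP-binding regulators 0 were called in either direction, with a median of 0.03. In the AXL receptor family and its ligand (3 genes), *GAS6*, the ligand of AXL, was 238 and 46.4 CPM in rapamycin 1 and 2 and 147 and 21.9 CPM in control 1 and 2. *GAS6* rose by 0.89 (standard error 0.26, edgeR's quasi-likelihood adjusted p = 0.0326). The related receptor *MERTK* was 8.05 and 2.96 CPM with rapamycin and 4.48 and 0.972 CPM in control, a blocked log2 fold change of 1.19 that did not pass (standard error 0.52, edgeR's quasi-likelihood adjusted p = 0.159).

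**Figure D4:**
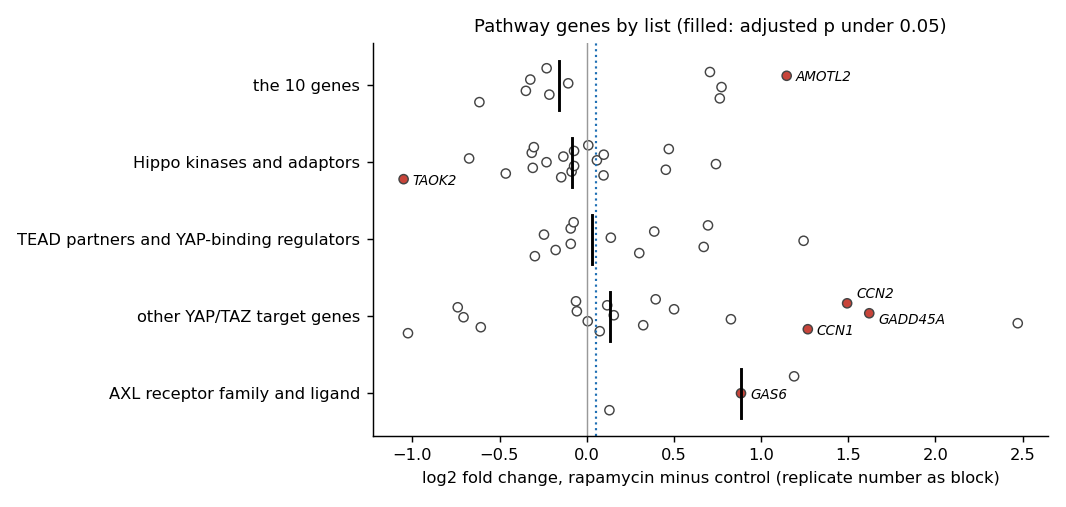
Blocked log2 fold change for rapamycin of each gene in the 10-gene set and the 4 pathway lists. Filled points passed an adjusted p of 0.05 (*AMOTL2*, *TAOK2*, *CCN1*, *CCN2*, *GADD45A* and *GAS6*), black bars are list medians and the dotted line is the median of all tested genes, 0.05.

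Between numbers, 26 of the 52 pathway genes were called, and 17 without the treatment term. Among the other target genes 7 were higher in number 1 and 4 lower, against the 20.2% and 17% of all tested genes. *NT5E*, an ectonucleotidase, was 427 and 393 CPM in number 1 and 2.91 and 8.41 CPM in number 2 (rapamycin first), a log2 difference of 6.32 (standard error 0.42). *CCN1* was higher in number 1 by 5.09 (standard error 0.36) and *CCN2* by 4.84 (standard error 0.38). *FOXF2* (a log2 difference of −6.19, standard error 0.57) and *IGFBP3* (−3.86, standard error 0.56) had the opposite direction, so the target genes did not share 1 direction. In the kinase and adaptor list 5 genes were higher in number 1 and 2 lower. They included the FERM protein gene *FRMD6* (2.48, standard error 0.36) and the scaffold gene *WWC2* (1.24, standard error 0.30) on the higher side, and the kinase gene *MINK1* (−0.93, standard error 0.26) on the lower. Of the TEAD partners and regulators, 4 were higher and 2 lower. *VGLL3*, a TEAD cofactor (3.07, standard error 0.34), and *WTIP*, a LIM protein related to AJUBA (2.12, standard error 0.47), were higher in number 1. *AMOT*, the angiomotin relative of *AMOTL2*, was 0.631 and 0.785 CPM in number 1 and 26.6 and 30.8 CPM in number 2 (log2 difference −5.33, standard error 0.45), and *VGLL4*, which competes with YAP1 for TEAD, was lower in number 1 by −1.27 (standard error 0.27). *GAS6* (2.55, standard error 0.27) and *MERTK* (1.80, standard error 0.53) were higher in number 1, as *AXL* was. Each of these differences passed edgeR's quasi-likelihood test at an adjusted p of 0.05.

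Among the 61 other genes of the set and lists, the pattern of *YAP1* over the 4 libraries was nearest to *MYOF*, a membrane repair gene and listed YAP1 target, at a distance of 0.25 in centred log2 CPM. *MINK1* (0.34) and *MAP4K5* (0.35), kinases of the pathway, came next. *MYOF* was 493 and 977 CPM in rapamycin 1 and 2 and 548 and 872 CPM in control 1 and 2, with the higher values in number 2 as for *YAP1*. The nearest genes to *WWTR1* were *AJUBA* (0.42), *MOB1A* (0.48) and *TAOK1* (0.49).

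A TEAD motif, GGAATG or its reverse complement CATTCC, was searched in the 250 bases before the RefSeq transcription starts available on GRCh38.p14. These do not cover every annotated start. It was held by 11.9% of 35116 promoters, and by 5 of the 13 promoters of the 8 genes with an entry (*TEAD1* and *TEAD4* had none). A match is a description of the letters, not a bound site. The promoters of *YAP1*, *ANKRD1*, *AMOTL2* and *AXL* at their outermost start, and of *CCN2*, are printed as examples from the genes described above. They are shown 5′ to 3′ on the gene's strand, with the motif in capitals. They lie at chr11:102110197-102110446 (plus strand, *YAP1*), chr10:90921088-90921337 (minus, *ANKRD1*), chr3:134375418-134375667 (minus, *AMOTL2*), chr19:41218973-41219222 (plus, *AXL*) and chr6:131951373-131951622 (minus, *CCN2*).
YAP1: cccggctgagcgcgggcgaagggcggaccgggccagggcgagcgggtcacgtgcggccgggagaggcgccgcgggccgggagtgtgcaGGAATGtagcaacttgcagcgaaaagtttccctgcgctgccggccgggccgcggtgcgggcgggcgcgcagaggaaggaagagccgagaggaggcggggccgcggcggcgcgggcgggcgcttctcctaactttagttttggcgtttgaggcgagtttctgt
ANKRD1: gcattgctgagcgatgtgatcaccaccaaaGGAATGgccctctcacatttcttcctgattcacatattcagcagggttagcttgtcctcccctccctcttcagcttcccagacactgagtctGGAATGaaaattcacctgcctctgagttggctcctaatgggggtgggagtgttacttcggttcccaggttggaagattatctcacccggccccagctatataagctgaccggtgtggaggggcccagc
AMOTL2: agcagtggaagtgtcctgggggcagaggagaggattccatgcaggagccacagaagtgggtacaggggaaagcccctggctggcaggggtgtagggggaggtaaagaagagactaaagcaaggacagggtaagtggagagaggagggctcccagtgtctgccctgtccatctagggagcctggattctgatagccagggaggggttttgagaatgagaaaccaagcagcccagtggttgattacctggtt
AXL: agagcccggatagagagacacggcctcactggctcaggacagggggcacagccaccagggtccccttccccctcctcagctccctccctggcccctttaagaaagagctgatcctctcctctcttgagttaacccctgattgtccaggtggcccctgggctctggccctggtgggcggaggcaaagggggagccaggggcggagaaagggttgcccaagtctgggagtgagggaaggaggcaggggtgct
CCN2: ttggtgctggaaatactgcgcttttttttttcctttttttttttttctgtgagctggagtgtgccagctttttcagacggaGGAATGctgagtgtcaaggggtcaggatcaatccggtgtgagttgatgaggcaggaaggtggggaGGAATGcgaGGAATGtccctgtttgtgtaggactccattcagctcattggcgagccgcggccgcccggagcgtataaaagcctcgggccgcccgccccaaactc

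*CCN2* held 3 copies, starting 169, 104 and 95 bases before the start, and *ANKRD1* held 2, at 220 and 128 bases. Of all promoters, 0.94% held 2 or more. *YAP1* held 1 copy at 162 bases. The printed windows of *AMOTL2* and *AXL* held none, while a second annotated start of each had 1 copy, 69 and 212 bases before it. *AJUBA* had 1 copy 59 bases before its second start, and *WWTR1*, *LATS1* and *LATS2* had none in their windows. The *WWTR1* windows lay inside the RefSeq gene, so its outermost start was not searched. Of the 12 promoters of other target genes with an entry, 5 held the motif. Among other pathway genes named above as called, *WWC2*, *WTIP* and *FOXF2* held it. *CCN1* and *GADD45A* had no entry, so their promoters were not searched. *TAOK2*, *GAS6*, *MERTK*, *NT5E*, *IGFBP3*, *FRMD6*, *MINK1*, *VGLL3*, *VGLL4* and *AMOT* had no copy in their windows. A relation between the motif and the mRNA differences was not tested.

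The authors' peak lists gave 22 m6A peaks on 8 of the 10 genes, 10 in coding sequence and 12 in the 3′ untranslated region (UTR), and all 22 lay inside the RefSeq gene. Each list comes from 1 pair of libraries, so no difference between lists was tested, and fold enrichment over input was ranked as a percentile within its own list. In HSC3, a peak was listed on 5 of the 10 genes without rapamycin and on 5 with it, against 17.6% and 17.5% of all genes tested for mRNA. In CAL33, it was 2 of the 10 without rapamycin and 4 with it, against 16.1% and 14.2%. *TEAD1* and *ANKRD1* had no peak in any list, as was the case for 64.6% of the tested genes. A gene without a listed peak is not shown to lack m6A, and the depth of these libraries is unknown.

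*AMOTL2* was the only gene of the 10 with a peak in all 4 lists, which held for 3.61% of the tested genes, and it carried 9 of the 22 peaks. Its peaks fell in a coding stretch, at 20.8% to 21.7% of the gene length from the start, and in the 3′ UTR. The coding peak ran over chr3:134371124-134371363 under rapamycin in HSC3 (fold enrichment 34.6, percentile 50.5). In CAL33 it ran over chr3:134370974-134371154 without rapamycin (6.38, percentile 9.77) and chr3:134371064-134371333 with it (7.5, percentile 11.5). The false discovery rate of the CAL33 control peak was 0.0501. These 3 peaks overlapped each other by 31 to 210 bp, and HSC3 control cells had no coding peak on *AMOTL2*. In the 3′ UTR, HSC3 control cells had 1 peak, chr3:134356412-134356592 (fold enrichment 47.7, percentile 57.6), which HSC3 rapamycin cells shared over 151 bp with a peak at chr3:134356442-134356771 (21.9, percentile 37.9). CAL33 rapamycin cells had a peak inside the same stretch, chr3:134356562-134356771 (10.3, percentile 17.4). A second 3′ UTR place was listed in HSC3 rapamycin cells at chr3:134357519-134357669 (13.7, percentile 25.3) and in CAL33 control cells at chr3:134357549-134357729 (4.26, percentile 5.53). HSC3 rapamycin cells had a further 3′ UTR peak of fold enrichment 2.73 with a false discovery rate of 0.0525.

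**Figure D5:**
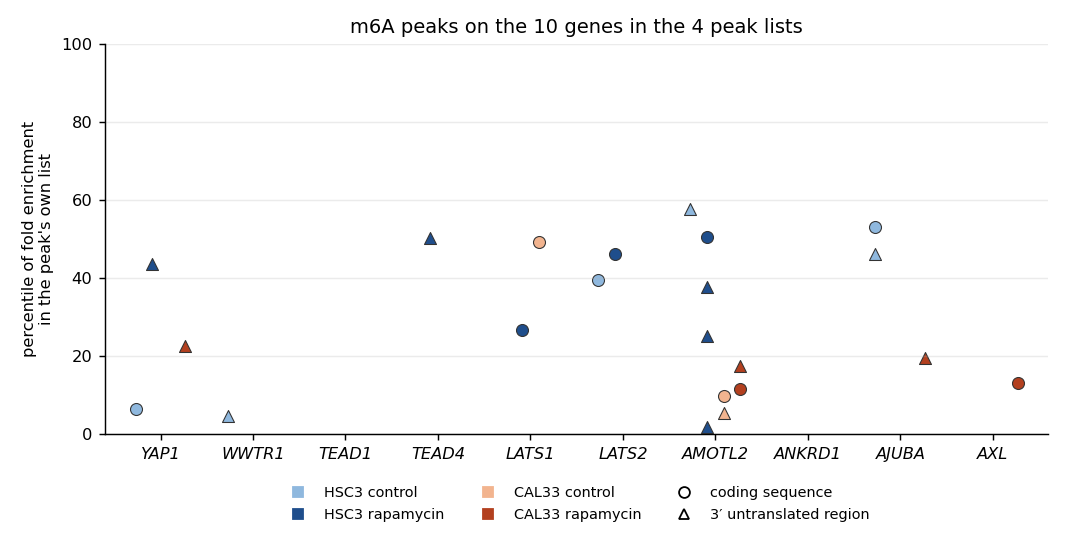
m6A peaks on the 10 genes, placed by the percentile of their fold enrichment in their own list. Circles are in coding sequence, triangles in the 3′ UTR, and colours mark the 4 lists. No peak is above percentile 57.6, and *AMOTL2* holds 9 of the 22.

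*YAP1* had a peak in 3 lists, and none in CAL33 control cells. In HSC3 control cells it ran over chr11:102229796-102229976 (annotated as coding, fold enrichment 4.43, percentile 6.40) and in CAL33 rapamycin cells over chr11:102229856-102230036 (annotated as 3′ UTR, 12.4, percentile 22.7). These overlapped by 121 bp. In HSC3 rapamycin cells the *YAP1* peak was placed further into the 3′ UTR, chr11:102231235-102231415 (27.3, percentile 43.6). *WWTR1* had 1 peak, in the 3′ UTR in HSC3 control cells (chr3:149518852-149519121, fold enrichment 3.67, percentile 4.75). *AJUBA* had a 3′ UTR peak at chr14:22973296-22973565 in HSC3 control cells (28.5, percentile 46.3) that overlapped by 181 bp with chr14:22973207-22973476 in CAL33 rapamycin cells (10.7, percentile 19.5), and a coding peak in HSC3 control cells (39.3, percentile 53.0).

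The LATS kinases had coding peaks at different places in different lists. *LATS1* carried 1 in HSC3 rapamycin cells (chr6:149661951-149662130, fold enrichment 14.1, percentile 26.7) and 1 in CAL33 control cells (chr6:149683855-149684094, 42.6, percentile 49.2). *LATS2* carried 1 in HSC3 control cells (chr13:20988003-20988213, 22.4, percentile 39.6) and 1 in HSC3 rapamycin cells (chr13:21045862-21046042, 30.1, percentile 46.2). *TEAD4* had a 3′ UTR peak in HSC3 rapamycin cells (chr12:3040524-3040673, 33.7, percentile 50.2). *AXL* had 1 coding peak in CAL33 rapamycin cells (chr19:41220708-41220828, 8.04, percentile 13.1) with a false discovery rate of 0.508, so it does not stand at a rate of 0.05.

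Of the 52 pathway genes, 13 had a peak in HSC3 control and 17 in HSC3 rapamycin cells, beside 17.6% and 17.5% of all tested genes. In CAL33, 13 had one without rapamycin and 10 with it, beside 16.1% and 14.2%. A peak in any list was held by 30 of the 52, while 64.6% of all tested genes had none. *TAOK1*, a kinase related to TAOK2, and *CCDC80*, an extracellular matrix gene, had peaks in all 4. *TAOK1* had 1 peak per list, at percentiles 85.9, 66.8, 55.9 and 15.1 in the same order. *CCDC80* had 10 peaks in all, among them a coding peak in HSC3 control cells at percentile 95.01. *CCN2* had 5 peaks in 3 lists, and its coding peak in CAL33 rapamycin cells stood at percentile 99.7 (fold enrichment 828). Fold enrichment is a ratio to input, and the input level under this peak is not given. *CCN2* mRNA was low in the RNA-seq libraries of number 2, at 3.18 CPM with rapamycin and 0.845 CPM in control. The part of a low input in this ratio was not tested.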

How the data were processed

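RNA-seq was analysed from the raw read counts per gene (HTSeq) that the authors deposited for 4 libraries under Ensembl identifiers. Of 58302 identifiers, 57532 had a symbol. The authors deposited 4 m6A peak lists, each from 1 pair of libraries, that hold a ratio to input (fold enrichment), a p-value and the log10 of a false discovery rate for each peak. The submitters' notes name hg38, cutadapt 2.5, HISAT2 2.1.0, featureCounts 1.6.3 and HOMER 4.10.4 with no roles. The mRNA kit is stranded, and the use of strand in counting and the peak caller are not given in the sources used here.

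In R 4.3.3, edgeR 4.0.16 kept 15826 genes by filterByExpr, scaled libraries by TMM and tested treatment with the quasi-likelihood test and Benjamini-Hochberg adjustment over all tested genes. A second fit had the replicate number as a block, and number 1 was compared with number 2 with treatment as a term. Standard errors of the edgeR fits were derived from the test. Each is the absolute log2 fold change divided by the square root of the F statistic. The pairing comes from the numbers in the titles. Differences between numbers with and without rapamycin correlated at r = 0.90 across 15826 genes, which are not independent. Log2 differences within pairs used a prior count of 2. DESeq2 1.42.0, other normalizations, filters and peak thresholds, and leaving out each library, were alternatives. The code was tested on simulated data. Peak positions are printed counted from 1, and peaks overlapped when at least 1 bp was shared on the same strand. Python 3.11.15 gave the overlaps, and R gave the Poisson intervals.

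The genes and pathway lists were chosen with earlier results of these data known. Named are the 10 genes, *CCN1* and *CCN2*, up to 3 called genes per list and direction for rapamycin and 2 for the number (by fold change, mean log2 CPM from 1), genes with peaks in all 4 lists, and the 3 nearest patterns to *YAP1* and *WWTR1*. *FJX1* was added outside this rule, as the gene of its list nearest the rapamycin threshold without passing it. Promoter sequences and gene positions come from RefSeq (GRCh38.p14). Peak sequences are not printed, since no genome was used.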

Additional observations from a re-analysis of the deposited data

Results flagged for a closer look

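For 4 of the 10 genes the rapamycin and control libraries differed in opposite directions in the 2 numbers, which have 1 library per treatment each, so the difference was not tested. The share of all tested genes that did so was not counted, so the 4 genes are not shown to stand apart. Other target genes, among them *NT5E*, *FOXF2*, *IGFBP3* and *CCDC80*, also differed in opposite directions. On the log2 scale, rapamycin minus control was −0.48 in number 1 and 0.021 in number 2 for *YAP1*, −0.82 and 0.39 for *WWTR1*, 0.10 and −0.32 for *TEAD1*, and 0.995 and −0.31 for *ANKRD1*. The *ANKRD1* value in number 2 rests on 4 and 7 counts.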

How the results depend on the processing

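The count of genes called for rapamycin moved most with the pairing. It was 0 without the replicate block and stayed 0 with each library left out (0 to 0, also for the 10 genes and the pathway lists), 1290 with the replicate block, 42 with DESeq2 and 818 with DESeq2 and the block. With the block it was 1165 under upper-quartile normalization, 1606 with no filter on low counts and 1236 with at least 10 counts in every library, and the combinations with the block other than the plain one were chosen after seeing the data. Under each of these 5 fits with the block, 1 of the 10 genes (*AMOTL2*, log2 fold change 1.11 to 1.22, adjusted p 0.00168 to 0.00954) and 5 pathway genes were called, against 0 and 0 without it, and no other of the 10 genes changed its call. Between numbers, 5899 genes were called, 3927 with at least 10 counts in every library (where *ANKRD1* was not tested) and 3057 without the treatment term, where the pathway genes fell from 26 to 17 and *AMOTL2* became −0.017.

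Without the block, *TEAD1* (−0.03) became 0.059 with upper-quartile normalization and 0.0061 with at least 10 counts in every library. With 1 library left out, the log2 fold change for rapamycin ranged from −0.80 to 0.28 for *YAP1*, −0.67 to 0.23 for *WWTR1*, −0.88 to 0.57 for *TEAD1*, −7.64 to 8.25 for *ANKRD1* and −4.94 to 6.37 for *AXL*, where the remaining libraries leave the numbers unbalanced. The values that turned were 0.28 and 0.15 (*YAP1*), 0.23 and 0.04 (*WWTR1*), 0.50 and 0.57 (*TEAD1*), −7.64 and −0.002 (*ANKRD1*), and −4.94 and −0.15 (*AXL*). Between numbers, with 1 library left out there is no test, and the values ranged from −0.89 to 0.31 for *WWTR1*, −0.25 to 0.51 for *AMOTL2* and −0.34 to 0.18 for *AJUBA*. Of 217 values of single genes under alternatives, 182 kept their direction and, where there was a test, their side of the threshold, 19 turned, 10 moved, 5 passed and 1 no longer passed. Genes with a peak went from 5 to 4 in HSC3 control cells when a fold enrichment of 4 was required and from 4 to 3 in CAL33 rapamycin cells at a false discovery rate of at most 0.05, and overlapping pairs of peaks from 9 to 7 when 50% of the shorter peak had to be shared. Depth limits *ANKRD1* in number 2, and 1 pair of libraries per list limits all peak values.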
